A study of Mus musculus with 6 samples.

Results

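The unfolded protein response and the ATF4 programme were followed in cultured mouse granulosa cells through 38 genes, named by symbol in the deposited gene tables: chaperones, degradation factors and stress sensors of the endoplasmic reticulum (ER), and genes of amino acid supply and serine synthesis that the transcription factor ATF4 is known to drive. All 38 were found among the 55860 genes of the tables and all 38 were among the 15227 genes with enough reads to be tested, so that no member was lost to the filter on low counts. A second gene of the table also carries the name Ddit3, is 105 bases long and had 0 reads in every library, and the longer gene was used. All 105 bases are shared, on the same strand, with exons of the longer gene (6.13% of its exon bases). The effect of this on either count was not tested. Granulosa cells line the ovarian follicle, nourish the oocyte and make oestrogen. Messenger RNA had been sequenced from ovarian granulosa cells of Il22r+/+ mice (3 libraries) and of Il22r-/- mice (3 libraries), which lack the interleukin-22 receptor, an activator of STAT3. Cells of both genotypes had been purified on a density gradient and kept for 12 h in DMEM-F12 medium with fetal bovine serum and antibiotics, and the labels name no treatment with interleukin-22 or with an inducer of ER stress. Strain, age, the deleted exon and the number of mice behind a library are not stated in the labels.

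Secreted and membrane proteins are folded in the ER by chaperones such as BiP (Hspa5) and by disulfide isomerases, and chains that fail to fold are taken out for degradation. Unfolded protein is sensed by IRE1 (Ern1), PERK (Eif2ak3) and ATF6. IRE1 splices the Xbp1 transcript and ATF6 is cleaved to an active factor, and both raise chaperone and degradation genes. PERK phosphorylates the translation factor eIF2, which favours translation of ATF4, and ATF4 in turn drives genes of amino acid uptake and synthesis and the stress factors Ddit3, Trib3 and Chac1. The eIF2 arm is also reached by kinases that answer to amino acid shortage, haem shortage or viral RNA. Granulosa cells secrete inhibins, activins and matrix, which pass through the ER. Messenger RNA levels do not show Xbp1 splicing, ATF6 cleavage or eIF2 phosphorylation.

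The members had no shared direction over the 38. Their calls are given by role, in groups set with earlier results of these data known. Called here means a Benjamini-Hochberg adjusted p under 0.05 in edgeR's quasi-likelihood test over all 15227 tested genes, and CPM stands for TMM-scaled counts per mega-read. In Il22r-/- cells 11 members rose and 12 fell, and 15 did not pass the test. Rises were found among the ER chaperones and folding enzymes (5 of 8, none lower) and the serine and one-carbon enzymes (4 of 5, none lower). Falls were found among the ER-associated degradation factors (3 of 4, none higher), the sensors and transcription factors (3 of 7, none higher), the stress effectors (2 of 3, none higher) and the amino acid transporters (2 of 3, none higher). The co-chaperones and secreted factors went both ways, with 2 of 5 higher and 2 lower. The 3 enzymes of asparagine and proline synthesis gave no call. As first planned, serine synthesis stood with asparagine and proline synthesis, and the one-carbon enzymes with the transporters. That second group would hold both rises (Shmt2, Mthfd2) and falls (Slc7a5, Slc3a2). The 23 calls were 60.5% of the members, beside 45.7% of all tested genes and 52.4% of the 9758 tested genes that averaged 10 CPM or more, a level that every member reached. Of all tested genes 23.6% were called higher and 22.1% lower, beside 28.9% and 31.6% of the members. In 27 members (71.1%) the libraries of both genotypes did not overlap, beside 56.0% of all tested genes. The share of members called was thus above the background share by 14.8 percentage points over all tested genes. It was above by less over the genes of at least 10 CPM (60.5% beside 52.4%), the closer background. Both are a description of the list with no test, and the share without overlap was not taken for genes of at least 10 CPM.

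The sizes were modest. Log2 changes, given throughout as Il22r-/- minus Il22r+/+, ran from -0.64 (Slc7a5) to 0.76 (Pdia6), and no member changed 2-fold, whereas 14.3% of all tested genes, and 9.25% of those with at least 10 CPM, were called with a change of at least 2-fold. The median log2 change of the members was -0.08, beside 0.03 over all tested genes, and the median absolute change was 0.33, beside 0.36 over all tested genes and 0.29 over those with at least 10 CPM. The plot of log2 changes by role shows the called chaperones and serine enzymes to the right of 0, with Hyou1 and Psph slightly left of it and not called, and the called degradation factors, effectors and transporters to its left. Of the 23 calls, 18 held under all 16 alternative fits, including all 12 falls. The number of members called higher was 7 without Il22r+/+ replicate 1, as Hspa5, Hsp90b1, Calr and Creld2 no longer passed.

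**Figure D1:**
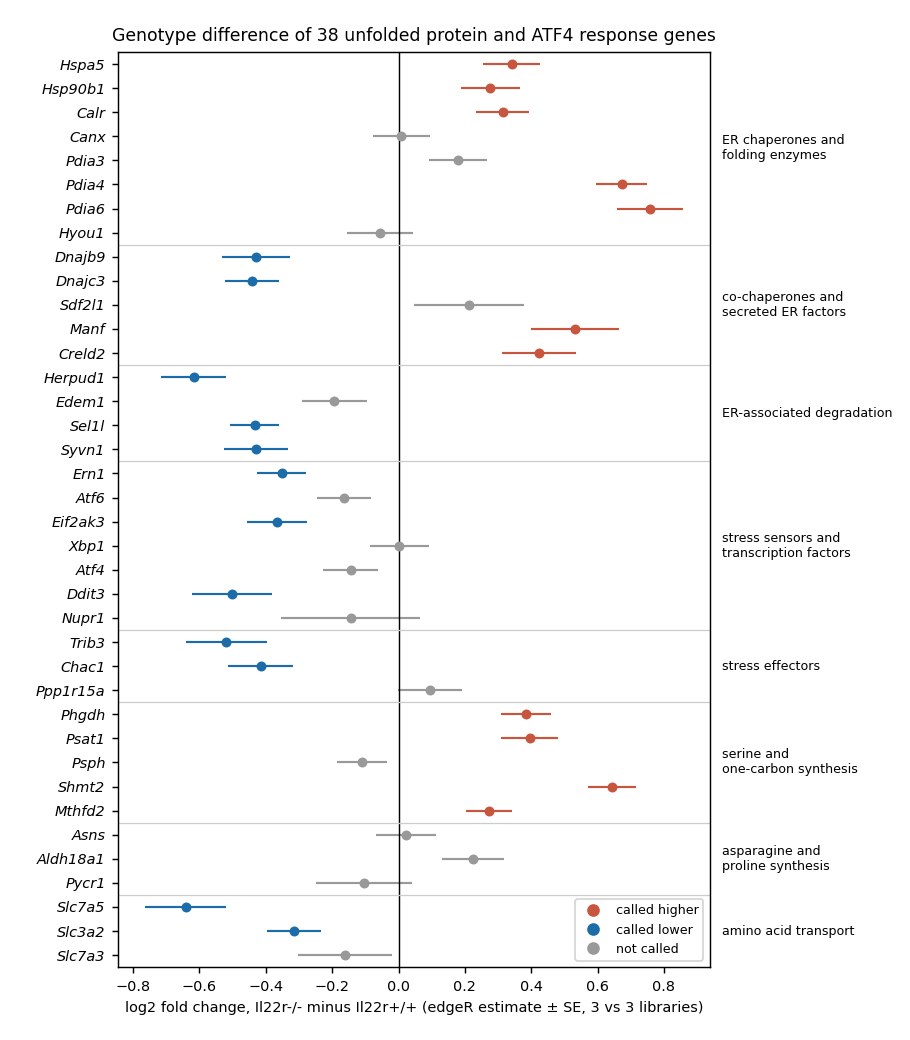
Log2 fold change (Il22r-/- minus Il22r+/+, x axis, edgeR estimate with its standard error as the bar, 3 against 3 libraries) of the 38 members, grouped by role. Red points are called higher (11), blue called lower (12) and grey not called (15), and the range is -0.64 to 0.76.

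The libraries were of similar depth, with 17425229 to 17704556 counted reads in Il22r+/+ and 14948187 to 18116413 in Il22r-/-. The gene taken as the targeted receptor chain, Il22ra1, was counted 1, 5 and 4 times in the Il22r+/+ libraries and 5, 2 and 0 times in the Il22r-/- libraries, too few to check the genotype labels, and no member lies on its chromosome. Il22r-/- replicate 3 stood apart on the second principal component (14.5, beside -8.93 to 1.22 for the other libraries; 4.21% of the variance), and it was the Il22r-/- library nearest to the Il22r+/+ mean in 15 of the 23 called members. Of the granulosa marker list 11 of 13 genes were tested (4 higher, 3 lower), and the summed level was 7482 to 8301 CPM in Il22r+/+ and 7393 to 8250 CPM in Il22r-/-, carried mostly by Inha, Inhba and Gja1. The granulosa genes Cyp19a1 (at most 1.48 CPM in a library) and Amh (at most 1.76 CPM) were near 0 in both genotypes, and Fshr averaged 0.257 CPM in Il22r+/+ and 5.99 CPM in Il22r-/- (edgeR adjusted p = 1.45e-05). Amhr2, Nr5a2 and Inhba were also higher in Il22r-/-, and Foxl2, Nr5a1 and Gja1 lower, so the similar sums do not show a like granulosa profile in both genotypes. Markers of other cells differed with genotype. All 9 tested of 11 macrophage markers were higher in Il22r-/- (summed 8.83 to 11.6 CPM against 28.6 to 87.9 CPM). Several had enough reads to be tested through Il22r-/- alone, such as Tyrobp (0, 1 and 3 reads in Il22r+/+ against 39, 62 and 13). The direction of such genes was set in part by the filter, so the count of 9 is a description only. Ovarian surface and mesothelial markers were lower for 6 of 8 (667 to 678 CPM against 20.1 to 33.8 CPM), stroma markers summed to 681 to 703 CPM against 226 to 385 CPM (1 higher and 2 lower of 6 tested), and smooth muscle markers to 267 to 323 CPM against 359 to 581 CPM (5 higher, 1 lower of 7 tested). Theca and interstitial markers summed to 512 to 683 CPM against 1105 to 1730 CPM, almost all from Hsd3b1 and Ptch1, both higher, and endothelial markers to 3.74 to 5.63 CPM against 4.204 to 7.63 CPM (2 higher, 1 lower of 3 tested). Through Il22r-/- alone were likewise tested the endothelial Kdr (3, 0 and 4 reads against 12, 22 and 10) and the smooth muscle Cspg4 (3, 4 and 7 against 24, 65 and 30). The same holds for Fshr (1, 7 and 5 reads against 95, 109 and 109). Of plasma cells, which carry a strong unfolded protein response, Jchain, Mzb1, Tnfrsf17 and Ighm were at or near 0 (the summed 161 to 234 CPM came from Sdc1), and so were the oocyte and globin genes. Most member genes are widely expressed, fewer cells of a type cannot be told apart from less RNA per cell, and the part of these other cells in the member results was not tested.

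In level per transcript length the members covered a wide span. By the deposited FPKM (fragments scaled by transcript length and library total), the highest were the folding genes: Pdia3 at 286 ± 12.96 in Il22r+/+ and 318 ± 22.5 in Il22r-/- (mean ± SD, n = 3), Calr at 271 ± 5.64 and 331 ± 13.7, and Hspa5 at 204 ± 4.005 and 254 ± 19.1. Pdia4 (160.4 ± 3.39 and 251 ± 7.86), Hsp90b1 (154 ± 6.81 and 183 ± 14.3) and Canx (142 ± 6.88 and 140.0 ± 9.99) followed, together with Atf4 (146 ± 12.3 and 129.95 ± 3.55) and Nupr1 (135 ± 16.8 and 119.8 ± 33.4). In Il22r+/+ the neighbours Pdia3 and Calr, Pdia4 and Hsp90b1, Hsp90b1 and Atf4, and Atf4, Canx and Nupr1 differed by less than the sum of their SDs. The sensors were far below their chaperone targets, with Atf6 at 24.0 ± 0.901, Ern1 at 14.5 ± 0.757 and Eif2ak3 at 8.19 ± 0.712 FPKM in Il22r+/+. The lowest members were Slc7a3 (6.20 ± 0.238) and Pycr1 (3.60 ± 0.463). In the plot of FPKM by member, Pdia6 moved from rank 12 in Il22r+/+ to rank 10 in Il22r-/-, whereas Pdia4 stayed at rank 4, below Hspa5 at rank 3.

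**Figure D2:**
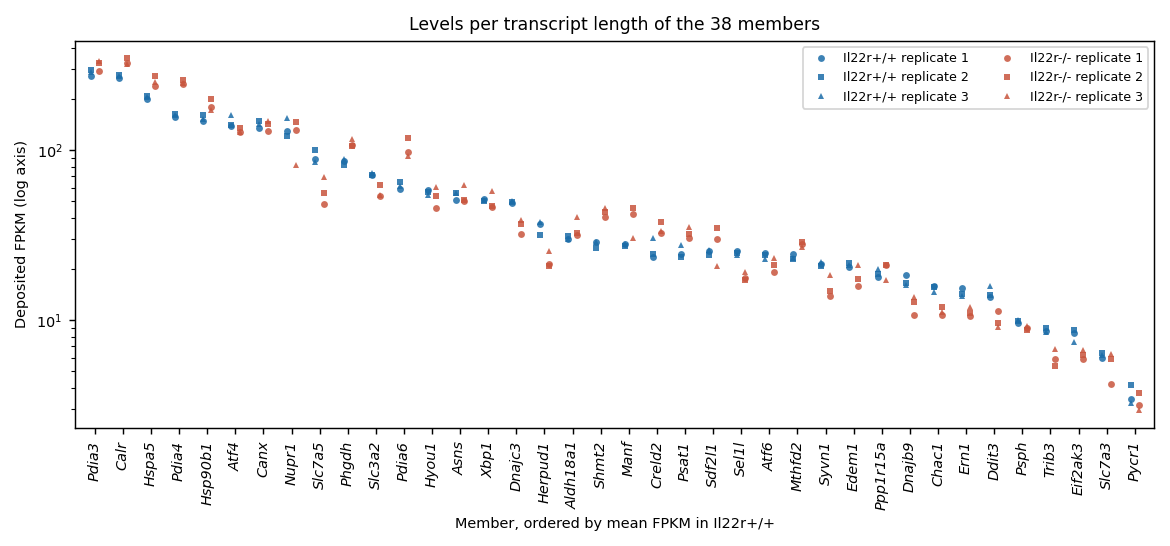
Deposited FPKM (log y axis) of each member in the 6 libraries, ordered by the Il22r+/+ mean. Blue symbols are Il22r+/+ and red symbols Il22r-/-, and the Il22r+/+ means run from 286 (Pdia3) down to 3.60 (Pycr1).

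Promoter sequence was searched for 3 motifs of these pathways. RefSeq promoters (assembly GRCm38.p6, the build of mm10; 250 bases before to 50 after a transcription start) were matched for 33 members in 34 windows. Manf, Slc7a5, Atf6, Hyou1 and Slc7a3 were not searched. The ER stress element, searched on both strands as CCAAT and CCACG with any 9 bases between them, joins a CCAAT box, which NF-Y binds, to a CCACG box, which ATF6 and XBP1 bind. It was found in 8 member windows (23.5%), beside 39 of all 32851 windows (0.119%). The members were chosen as known genes of these pathways. The higher share cannot be read apart from that choice, and it is given as a description only. Of the 8 genes, Hspa5, Hsp90b1, Calr, Pdia6 and Creld2 rose, Dnajc3 and Syvn1 fell, and Canx was not called, so genes with the same element moved in both directions. The 9 elements, written 5′ to 3′ on the strand that carries the motif with the motif letters in capitals, show how the 9 spacer bases differ between genes. They are all given because they compare the risers with the fallers, and those of Hspa5, Hsp90b1, Calr, Canx and Creld2 were chosen after their values were seen.
Hspa5: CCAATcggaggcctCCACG
Hsp90b1, first element: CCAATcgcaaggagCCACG
Hsp90b1, second element: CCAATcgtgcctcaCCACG
Calr: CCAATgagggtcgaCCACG
Canx: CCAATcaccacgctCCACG
Pdia6: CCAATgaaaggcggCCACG
Dnajc3: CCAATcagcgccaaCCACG
Creld2: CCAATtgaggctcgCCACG
Syvn1: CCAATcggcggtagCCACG
These lay, in mm10 coordinates, with Hspa5 at chr2:34772025-34772043, Hsp90b1, first element at chr10:86705638-86705656, Hsp90b1, second element at chr10:86705533-86705551, Calr at chr8:84847075-84847093, Canx at chr11:50325800-50325818, Pdia6 at chr12:17266491-17266509, Dnajc3 at chr14:118937827-118937845, Creld2 at chr15:88819520-88819538, Syvn1 at chr19:6046532-6046550. Counting the start base as 0, the elements began between -212 (the first of Hsp90b1) and -44 (Syvn1), and those of Calr, Creld2 and the second of Hsp90b1 were on the strand opposite to the gene.

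The C/EBP-ATF response element, which ATF4 with a C/EBP partner binds, was searched on both strands as TGATG, any base, then AA. It was found in 6 member windows (17.6%), beside 1304 of all windows (3.97%): Herpud1 (beginning at -112), Nupr1 (-110), Pycr1 (-103), Chac1 (-193), Asns (-23) and, after the start, Trib3 (14). With any further base required at its end the same 6 members matched, as any match not at the edge of its window must. Known ATF4 targets were among the members by choice, so this higher share is likewise a description only. Herpud1, Trib3 and Chac1 fell, Asns, Nupr1 and Pycr1 were not called, and none of the 6 rose. Among other genes of these pathways, described below, 13 of 95 windows (13.7%) held it. Those include Slc7a11 and Atf3, which rose, and Got1 and Aars, which fell, so genes with this element also moved in both directions. The XBP1 and ATF6 core TGACGTGG was in 0 of the 34 member windows, beside 222 of all windows (0.676%). No member window held both the ER stress element and the C/EBP-ATF element. A match is a run of letters and not a shown binding site. The upstream bases, up to the first annotated exon base, are given for called members whose motif lies before the start, the first 6 in order of adjusted p. The sixth, Hspa5, is shown by its element alone because that element lies in an annotated exon, Trib3 is passed over because its match follows the start, and Calr, Creld2 and Hsp90b1 come later in the order. The remaining 5 are Pdia6 (chr12:17266339-17266544, plus strand), which rose, and Herpud1 (chr8:94386179-94386428, plus), Dnajc3 (chr14:118937682-118937931, plus), Syvn1 (chr19:6046326-6046575, plus) and Chac1 (chr2:119350992-119351228, plus), which fell. Capitals mark the motif letters, the ER stress element in Pdia6, Dnajc3 and Syvn1 and the C/EBP-ATF element, here on the minus strand, in Herpud1 and Chac1.
Pdia6: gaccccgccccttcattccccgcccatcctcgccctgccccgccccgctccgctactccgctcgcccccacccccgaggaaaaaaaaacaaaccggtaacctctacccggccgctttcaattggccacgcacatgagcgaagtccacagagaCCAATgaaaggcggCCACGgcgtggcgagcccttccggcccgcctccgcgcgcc
Herpud1: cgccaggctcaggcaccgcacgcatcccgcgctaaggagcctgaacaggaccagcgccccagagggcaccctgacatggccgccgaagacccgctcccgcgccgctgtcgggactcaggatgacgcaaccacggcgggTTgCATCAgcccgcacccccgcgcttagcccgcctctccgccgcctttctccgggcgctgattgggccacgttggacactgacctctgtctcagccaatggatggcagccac
Dnajc3: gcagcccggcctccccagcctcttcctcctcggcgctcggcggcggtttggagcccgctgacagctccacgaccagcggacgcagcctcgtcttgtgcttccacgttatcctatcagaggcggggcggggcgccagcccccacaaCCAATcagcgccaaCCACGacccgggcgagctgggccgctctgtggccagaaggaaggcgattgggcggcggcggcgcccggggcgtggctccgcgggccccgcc
Syvn1: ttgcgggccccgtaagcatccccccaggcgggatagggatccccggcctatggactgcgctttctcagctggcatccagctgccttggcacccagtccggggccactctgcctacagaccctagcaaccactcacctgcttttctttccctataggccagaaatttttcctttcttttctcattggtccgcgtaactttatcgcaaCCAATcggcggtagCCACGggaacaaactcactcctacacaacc
Chac1: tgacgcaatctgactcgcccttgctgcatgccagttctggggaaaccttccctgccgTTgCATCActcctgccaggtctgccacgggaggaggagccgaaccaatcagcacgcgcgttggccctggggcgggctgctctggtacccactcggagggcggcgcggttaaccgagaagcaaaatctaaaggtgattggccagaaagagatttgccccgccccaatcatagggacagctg
In the plot of motif positions, purple and green bars do not occur together in any gene. The 5 members that rose and had a match all carry the ER stress element, unlike the risers Slc7a11 and Atf3 outside the members.

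**Figure D3:**
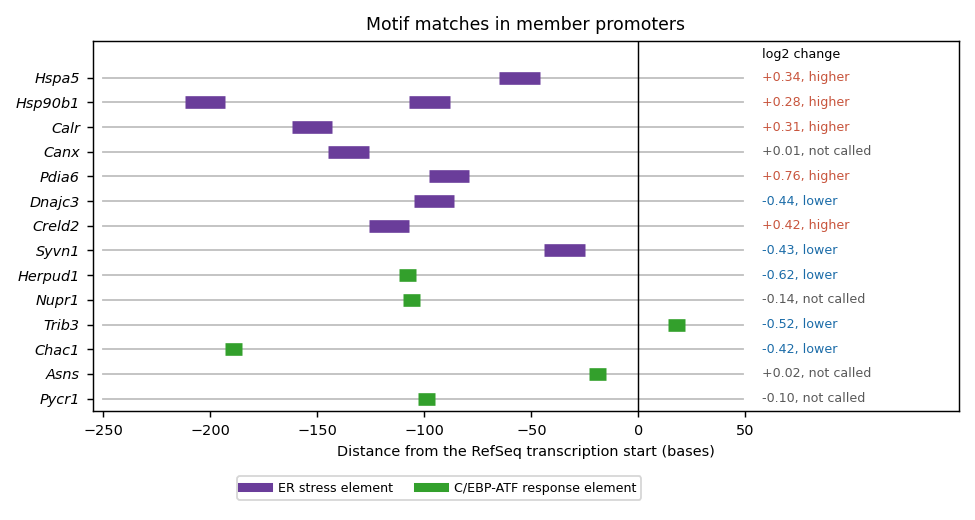
Position of motif matches (bars) in the promoter windows of 14 members, in bases from the RefSeq transcription start (x axis, 0 marked by the vertical line), with the log2 change and call of each gene at the right. Purple is the ER stress element (8 genes) and green the C/EBP-ATF response element (6 genes).

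Of the 8 ER chaperones and folding enzymes 5 rose, and Pdia6 and Pdia4 had the largest rises of all members. Pdia6 (ENSMUSG00000020571, mm10 chromosome 12, 17266545 to 17284770, plus strand), a disulfide isomerase, had 214, 237 and 224 CPM in Il22r+/+ replicates 1 to 3 and 365, 435 and 342 CPM in Il22r-/-. Pdia4 (ENSMUSG00000025823, chromosome 6, 47796141 to 47813430, minus strand), another ER disulfide isomerase, had 365, 381 and 377 CPM against 589.5, 619 and 582 CPM. In both genes the lowest Il22r-/- library was above the highest Il22r+/+ library by more than the range within Il22r+/+. Pdia6 rose by 0.76 ± 0.10 on the log2 scale (estimate ± SE, 1.69-fold; edgeR quasi-likelihood adjusted p = 0.000154) and Pdia4 by 0.67 ± 0.08 (1.59-fold; adjusted p = 5.67e-05). Hspa5 (ENSMUSG00000026864, chromosome 2, 34771970 to 34777547, plus strand), the ER Hsp70 and master chaperone, had 822, 853 and 849 CPM against 1001, 1151 and 1044 CPM. It rose by 0.34 ± 0.09 (adjusted p = 0.00833), with no overlap between the genotypes. The lectin chaperone Calr (ENSMUSG00000003814, chromosome 8, 84841850 to 84846934), which folds glycoproteins, rose by 0.31 ± 0.08 (759 ± 16.9 to 944 ± 41.0 CPM, mean ± SD, n = 3; adjusted p = 0.00886). The ER Hsp90, Hsp90b1, rose by 0.28 ± 0.09 (604 ± 27.7 to 732 ± 58.9 CPM; adjusted p = 0.0261), and 10.3% of its exon bases are shared with 1810014B01Rik on the opposite strand.

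The calls of these 3 smaller rises were lost in some fits with fewer libraries, while the estimated folds moved by at most 1.06 times. Without Il22r+/+ replicate 1 the log2 changes of Hspa5, Calr and Hsp90b1 were 0.32, 0.29 and 0.24 and their edgeR adjusted p was 0.0559, 0.0597 and 0.129. The estimates were 0.27, 0.27 and 0.20 without Il22r-/- replicate 2, the highest library in all 3 genes, with an adjusted p of 0.0519, 0.0503 and 0.133. Hsp90b1 also missed the threshold in edgeR without Il22r+/+ replicate 2 (0.0534) or replicate 3 (0.0954), and in limma on log2(FPKM + 1) with all libraries and no filter (adjusted p = 0.083). Canx, the membrane-bound partner of calreticulin, was level (614, 678 and 649.6 CPM against 605, 663 and 684 CPM; log2 0.01 ± 0.09, adjusted p = 0.947). Pdia3, the isomerase that works with these lectins, had 830.5, 911 and 879.9 CPM against 918, 1016 and 1034 CPM, which did not overlap, yet its difference of 0.18 ± 0.09 did not pass the edgeR test (adjusted p = 0.118; 0.0166 with library size alone). Hyou1, the large ER Hsp70 that exchanges nucleotide on BiP, overlapped between genotypes (384 to 408 CPM against 331 to 428 CPM; -0.06 ± 0.10, adjusted p = 0.68). Summed over the 8 genes, the level was 4575 to 4869 CPM in Il22r+/+ and 5459 to 6057 CPM in Il22r-/-.

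Among the co-chaperones and secreted factors, the ER DnaJ members Dnajc3 and Dnajb9 moved apart from the secreted factors Manf and Creld2. The ER DnaJ genes Dnajb11 (log2 0.22 ± 0.08, edgeR adjusted p = 0.0509) and Dnajc10 (-0.01 ± 0.10, adjusted p = 0.957), which are not members, were not called. Dnajb11 did not overlap between genotypes (114 to 122 CPM against 124 to 150 CPM). It was called higher in 4 of 16 alternatives, 1 of them without Il22r-/- replicate 3 (edgeR adjusted p = 0.00181). Dnajc3 (ENSMUSG00000022136, chromosome 14, 118937976 to 118981697, plus strand), the BiP co-chaperone p58IPK, which also inhibits eIF2 kinases, had 244, 247 and 252 CPM in Il22r+/+ and 166, 187 and 195 CPM in Il22r-/-. Dnajb9 (ERdj4), which brings BiP to IRE1 and to misfolded chains, had 45.3, 40.8 and 39.7 CPM against 27.4, 32.1 and 34.1 CPM. All 3 Il22r-/- libraries were below all Il22r+/+ libraries in both genes, and replicate 1 was the lowest. Dnajc3 fell by 0.44 ± 0.08 on the log2 scale (edgeR adjusted p = 0.00127) and Dnajb9 by 0.43 ± 0.10 (adjusted p = 0.00618). Manf, a secreted factor held in the ER by BiP, had 96.1, 94.2 and 95.5 CPM against 148, 159 and 106 CPM. Its Il22r-/- libraries were spread, with replicate 3 much nearer to Il22r+/+, and the rise of 0.53 ± 0.13 (edgeR adjusted p = 0.00995) was not called by limma on log2(FPKM + 1) with no filter (adjusted p = 0.0749). Creld2, an ER stress-inducible protein that is also secreted, had 31.2, 32.8 and 40.4 CPM against 44.1, 50.9 and 44.8 CPM and rose by 0.42 ± 0.11 (edgeR adjusted p = 0.0102). That call was lost in edgeR without Il22r+/+ replicate 1 (0.0601) or replicate 2 (0.0512), and by limma on log2(FPKM + 1) with no filter (adjusted p = 0.0625). Sdf2l1, an ER partner of the DnaJ proteins, had 27.4, 26.2 and 27.7 CPM against 33.03, 38.4 and 22.6 CPM, so that Il22r-/- lay on both sides of Il22r+/+ (0.21 ± 0.17, adjusted p = 0.327). Without Il22r-/- replicate 3 its difference was 0.38 and passed edgeR (adjusted p = 0.00444).

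Of the 4 ER-associated degradation factors, 3 fell. Herpud1 (ENSMUSG00000031770, chromosome 8, 94386438 to 94395377, plus strand), a membrane protein that assembles the retrotranslocation complex, had 83.1, 71.8 and 85.2 CPM in Il22r+/+ and 49.7, 48.3 and 58.7 CPM in Il22r-/-. Sel1l (ENSMUSG00000020964, chromosome 12, 91806043 to 91849157, minus strand), the adaptor of the ubiquitin ligase HRD1, had 211, 207 and 199.8 CPM against 151, 145 and 161 CPM. Syvn1 (ENSMUSG00000024807, chromosome 19, 6046576 to 6053712, plus strand), HRD1 itself, had 102, 98.4 and 104 CPM against 67.3, 71.4 and 87.4 CPM. The genotypes did not overlap in any of these 3 genes, and Il22r-/- replicate 3 was the highest of its group in each. By edgeR's quasi-likelihood test Herpud1 fell by 0.62 ± 0.10 on the log2 scale (1.53-fold, adjusted p = 0.000516), Sel1l by 0.43 ± 0.07 (adjusted p = 0.000794) and Syvn1 by 0.43 ± 0.10 (adjusted p = 0.0044). The ligase and its adaptor thus had the same estimated change to 2 decimals. Edem1, a lectin that hands misfolded glycoproteins to this complex, had 129, 136 and 132 CPM against 102, 111 and 134 CPM. Replicate 3 of Il22r-/- was inside the Il22r+/+ range and the difference of -0.19 ± 0.10 was not called (adjusted p = 0.13), whereas without that library it was -0.33 (adjusted p = 0.000838). The summed level of the 4 genes was 513 to 525 CPM in Il22r+/+ and 370.4 to 441 CPM in Il22r-/-.

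Of the 3 sensors, 2 were lower. Ern1 (ENSMUSG00000020715, chromosome 11, 106394650 to 106487852, minus strand), which encodes IRE1, had 122, 114 and 110.3 CPM in Il22r+/+ and 86.6, 89.4 and 95.4 CPM in Il22r-/-. Eif2ak3 (ENSMUSG00000031668, chromosome 6, 70844515 to 70905245, plus strand), which encodes PERK, had 49.2, 51.6 and 43.3 CPM against 35.3, 37.1 and 39.3 CPM. Neither overlapped between genotypes. In edgeR Ern1 fell by 0.35 ± 0.07 (adjusted p = 0.00295) and Eif2ak3 by 0.37 ± 0.09 (adjusted p = 0.00765), and 8.05% of the exon bases of Eif2ak3 are shared with Gm43292 on the opposite strand. Atf6, the third sensor gene, had 222, 219 and 206 CPM against 176, 192 and 209 CPM. It overlapped through Il22r-/- replicate 3 and was not called (-0.16 ± 0.08, adjusted p = 0.13), although without that library it was lower by edgeR (log2 -0.25, adjusted p = 0.007).

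The transcription factors below the sensors behaved unlike each other. Xbp1 (ENSMUSG00000020484, chromosome 11, 5520659 to 5525893), the factor that IRE1 activates by splicing, had 164, 159 and 161 CPM in Il22r+/+ and 151, 150.2 and 184 CPM in Il22r-/-, with a log2 change of 0.00 ± 0.09 (edgeR adjusted p = 0.983). Atf4 (ENSMUSG00000042406, chromosome 15, 80255184 to 80257541), controlled largely by translation, had 318, 321 and 367 CPM against 301, 313 and 297 CPM. The 2 genotypes of Atf4 did not overlap, but the gap between 313 and 318 CPM was small beside the spread in Il22r+/+, and the change of -0.14 ± 0.08 was not called (adjusted p = 0.185). Ddit3 (ENSMUSG00000025408, chromosome 10, 127290774 to 127296288), the pro-apoptotic factor CHOP, had 22.8, 23.4 and 26.2 CPM against 19.3, 16.4 and 15.3 CPM. It fell by 0.50 ± 0.12 (adjusted p = 0.00595), with every Il22r-/- library below every Il22r+/+ library. Of its exon bases 3.97% are shared with Mars on the opposite strand. Nupr1, a small stress-induced chromatin protein, was the most variable member (318, 298 and 376 CPM against 331, 363 and 203 CPM; -0.14 ± 0.21, adjusted p = 0.607), with Il22r-/- replicate 3 alone below the other 5 libraries.

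Both called stress effectors, which are targets of ATF4 and CHOP, fell. Trib3 (ENSMUSG00000032715, chromosome 2, 152337422 to 152344032, minus strand), a pseudokinase that restrains ATF4 and AKT, had 17.9, 18.7 and 17.5 CPM in Il22r+/+ and 12.4, 11.3 and 14.1 CPM in Il22r-/-. Chac1 (ENSMUSG00000027313, chromosome 2, 119351229 to 119354381, plus strand), which degrades glutathione, had 25.1, 24.8 and 23.3 CPM against 17.6, 19.3 and 17.9 CPM. The genotypes were apart in both genes and the spread within Il22r+/+ was small. By edgeR Trib3 fell by 0.52 ± 0.12 (adjusted p = 0.0055) and Chac1 by 0.42 ± 0.10 (adjusted p = 0.00587). Ppp1r15a (GADD34), the phosphatase subunit that reverses eIF2 phosphorylation, had 51.4, 53.4 and 57.0 CPM against 61.5, 61.5 and 49.6 CPM, an overlap (0.09 ± 0.10, adjusted p = 0.45).

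The serine and one-carbon enzymes, also known ATF4 targets, went the other way. Shmt2 (ENSMUSG00000025403, chromosome 10, 127517123 to 127522444, minus strand), the mitochondrial enzyme that splits serine to glycine and a folate-bound carbon, had 86.7, 80.9 and 86.9 CPM in Il22r+/+ and 125, 133 and 139 CPM in Il22r-/-. Phgdh (ENSMUSG00000053398, chromosome 3, 98313170 to 98339990, minus strand), which opens the serine pathway, had 208, 197 and 215 CPM against 266, 261 and 282 CPM. Psat1, the next enzyme, had 101, 97.4 and 115 CPM against 129, 135 and 148 CPM. The groups were separate in these 3 genes, and Il22r-/- replicate 3 was the highest library in each, unlike in most other called members, where it lay nearest to Il22r+/+. In edgeR Shmt2 rose by 0.64 ± 0.07 on the log2 scale (1.56-fold, adjusted p = 5.76e-05), Phgdh by 0.38 ± 0.07 (adjusted p = 0.00188) and Psat1 by 0.40 ± 0.09 (adjusted p = 0.00358). Mthfd2, the mitochondrial folate dehydrogenase, rose by 0.27 ± 0.07 (79.4 ± 2.90 to 95.9 ± 3.74 CPM, mean ± SD, n = 3; adjusted p = 0.00879). Psph, which completes serine synthesis, had 40.5, 41.7 and 42.3 CPM against 38.9, 37.4 and 39.1 CPM. Its genotypes did not overlap, but its difference of -0.11 ± 0.08 was not called (adjusted p = 0.268), and 10.4% of its exon bases are shared with Cct6a on the opposite strand.

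Asparagine and proline synthesis gave no call in the edgeR fit used for all calls, or in DESeq2 (1 of 3 genes at an unadjusted edgeR p under 0.05). Asns, the asparagine synthetase and a standard ATF4 target, had 136, 149 and 149 CPM in Il22r+/+ and 137, 138 and 166 CPM in Il22r-/- (log2 0.02 ± 0.09, adjusted p = 0.859). Aldh18a1, which opens proline synthesis, had 119, 124 and 119 CPM against 128, 132 and 162 CPM. These did not overlap, yet the difference of 0.22 ± 0.09 missed the threshold (edgeR adjusted p = 0.0745, and 0.0107 with library size alone, 0.0427 unfiltered and 0.0402 without Il22r-/- replicate 1). Pycr1, which closes the pathway, was the member with the lowest level and overlapped between the genotypes (12.4 to 15.8 CPM against 11.4 to 14.6 CPM; -0.10 ± 0.14, adjusted p = 0.59).

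The amino acid exchanger showed the largest fall of any member. Slc7a5 (ENSMUSG00000040010, chromosome 8, 121881150 to 121907694, minus strand), the light chain LAT1 that imports large neutral amino acids, had 321, 361 and 307 CPM in Il22r+/+ and 178, 204 and 252 CPM in Il22r-/-. Slc3a2 (ENSMUSG00000010095, chromosome 19, 8706882 to 8723369, minus strand), the heavy chain that LAT1 and other exchangers need, had 244, 246 and 252 CPM against 188, 219 and 189 CPM. Both chains were lower in every Il22r-/- library. Slc7a5 fell by 0.64 ± 0.12 (1.56-fold, edgeR adjusted p = 0.00181) and Slc3a2 by 0.32 ± 0.08 (1.24-fold, adjusted p = 0.00932). The cationic amino acid transporter Slc7a3 was not called (21.9, 23.7 and 22.8 CPM against 15.9, 22.1 and 23.3 CPM; -0.16 ± 0.14, adjusted p = 0.38), and replicates 2 and 3 of Il22r-/- lay in the Il22r+/+ range.

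In the plot of library values by member, replicate 3 of Il22r-/- (triangles) was the nearest of its genotype to Il22r+/+ in 15 of the 23 called members, replicate 1 in 5 and replicate 2 in 3. Without replicate 3 the members called were 12 higher and 14 lower, as Sdf2l1 was added to the higher and Edem1 and Atf6 to the lower.

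**Figure D4:**
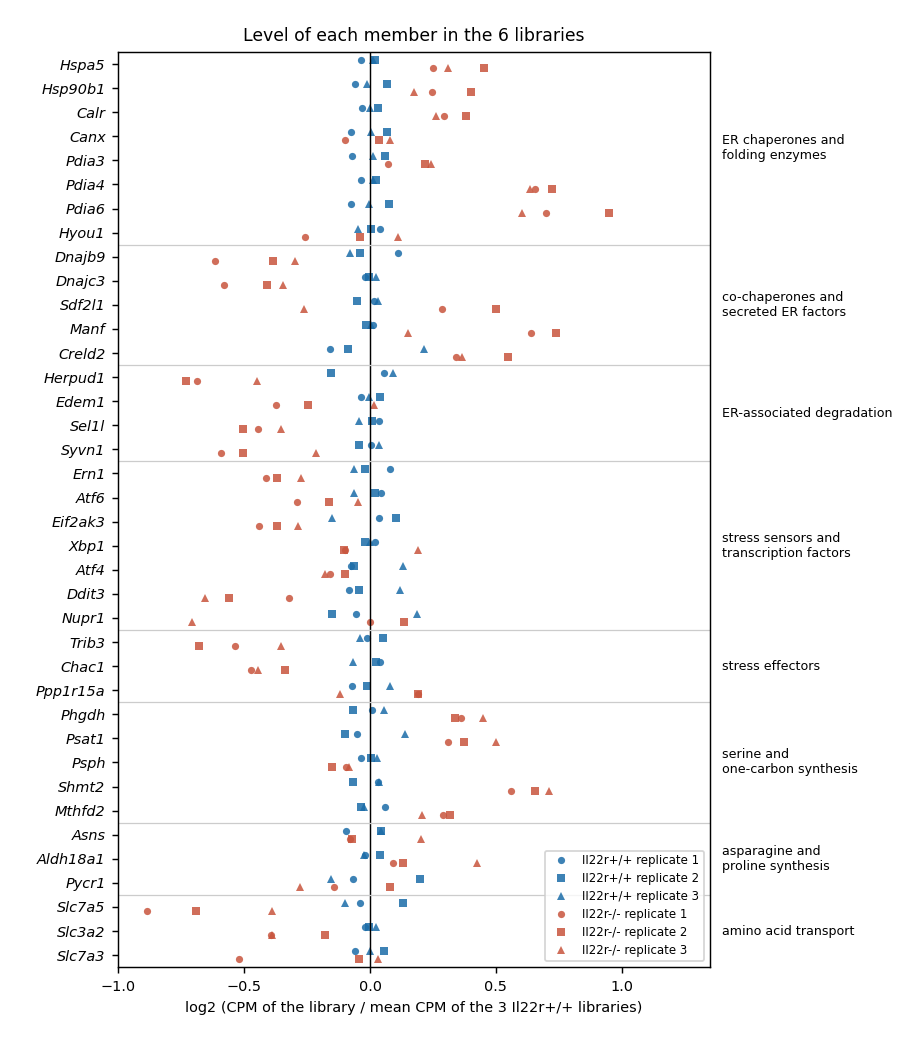
Level of each member in each library as log2 of its CPM over the mean CPM of the 3 Il22r+/+ libraries (x axis), grouped by role. Blue symbols are Il22r+/+ and red Il22r-/-, with circle, square and triangle for replicates 1, 2 and 3, and the triangles lie nearest to 0 among the red symbols in 15 of the 23 called members.

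A further 102 genes of the same pathways, listed by role, were all tested. Of these 22 were higher and 25 lower in Il22r-/- (46.1% called, near the background of all tested genes; median log2 0.04), and with library size alone in place of TMM the counts were 35 and 16. The split by role was not the same as in the members. ER folding and oxidation genes had 4 of 17 higher and 4 lower. Pdia5, a further isomerase, rose by 0.98 ± 0.11 (18.8 ± 1.55 to 36.9 ± 3.52 CPM, mean ± SD, n = 3; edgeR adjusted p = 4.82e-05). The collagen-folding isomerase Fkbp14 fell by 0.86 ± 0.08 (60.4 ± 1.74 to 33.2 ± 1.54 CPM). Of the oxidases that recharge the isomerases, Ero1l fell by 0.39 ± 0.09 and Ero1lb rose by 0.46 ± 0.11. Translocation genes had 4 of 13 higher and 1 lower. The channel subunits Sec61g (25.8 to 27.4 CPM against 35.8 to 78.1 CPM) and Sec61b (36.9 to 42.7 CPM against 49.5 to 80.3 CPM) rose by 1.17 ± 0.27 and 0.71 ± 0.16, with Il22r-/- replicate 3 the lowest of its group in both. The call of Sec61g was lost with no filter (edgeR adjusted p = 0.0817) or when Il22r-/- replicate 1 was left out (0.0686). The signal recognition receptor Srpr fell by 0.21 ± 0.07, a call held in 9 of 16 alternatives and lost in edgeR without any single Il22r+/+ library or Il22r-/- replicate 1 (adjusted p 0.0513 to 0.117).

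Degradation genes outside the members had 1 of 14 higher and 6 lower. Derl3, a derlin of the retrotranslocation channel, had 12.9, 11.9 and 19.0 CPM in Il22r+/+ and 86.0, 67.1 and 57.9 CPM in Il22r-/-. It rose 4.82-fold (log2 2.27 ± 0.21, edgeR adjusted p = 6.87e-05), the largest change among the 140 genes of the members and these lists, and its promoter also holds an ER stress element. The HRD1 cofactor Fam8a1 fell by 0.45 ± 0.09. Of the ATF6 and CREB3 family 3 of 6 were lower and none higher. The membrane-bound factors Creb3l2 and Creb3, cleaved like ATF6, fell by 1.00 ± 0.11 (618 ± 33.3 to 309 ± 45.5 CPM) and 0.74 ± 0.09. Of the eIF2 kinases and eIF2B subunits 2 of 10 were higher and 1 lower. Eif2s1, the phosphorylated subunit of eIF2, rose by 0.43 ± 0.07, the exchange factor subunit Eif2b5 by 0.20 ± 0.07 (a call held in 4 of 16 alternatives, and lost in edgeR without any library except Il22r-/- replicate 3, adjusted p 0.0554 to 0.15), and the kinase PKR (Eif2ak2) fell by 0.81 ± 0.08.

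ATF4 partners and effectors had 1 of 10 higher and 6 lower, with a median log2 change of -0.52. The C/EBP partner Cebpb had 277, 233 and 323 CPM in Il22r+/+ and 91.1, 97.0 and 112 CPM in Il22r-/-, and Atf5 had 279, 296 and 273 CPM against 117, 119.7 and 112 CPM. They fell 2.78-fold and 2.42-fold (log2 -1.47 ± 0.12 and -1.28 ± 0.07, edgeR adjusted p = 1.07e-05 and 6.95e-07), more than any member. Amino acid transport and metabolism genes linked to ATF4 had 4 of 11 higher and 3 lower. The cystine exchanger Slc7a11 rose by 1.01 ± 0.17 from a low level (5.66 ± 0.431 to 11.4 ± 1.78 CPM), and was 0.36 higher on the log2(FPKM + 1) scale. The mitochondrial folate enzyme Mthfd1l rose by 0.89 ± 0.11, and the aspartate aminotransferase Got1 and the cysteine-forming enzyme Cth fell by 0.54 ± 0.08 and 0.38 ± 0.12, the last held in 11 of 16 alternatives and lost in edgeR without Il22r+/+ replicate 2 (adjusted p = 0.0892), Il22r+/+ replicate 3 (0.0694) or Il22r-/- replicate 1 (0.0585). Cytosolic aminoacyl-tRNA synthetases, many of them ATF4 targets, had 6 of 21 higher and 1 lower. Kars and Qars rose by 0.57 ± 0.08 and 0.44 ± 0.08, and Aars fell by 0.23 ± 0.08 (held in 8 of 16 alternatives, and lost in edgeR without any library except Il22r-/- replicate 3, adjusted p 0.0736 to 0.147). The plot of these lists shows the ATF4 partner and CREB3 medians below 0 and the synthetase and folding medians just above it.

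**Figure D5:**
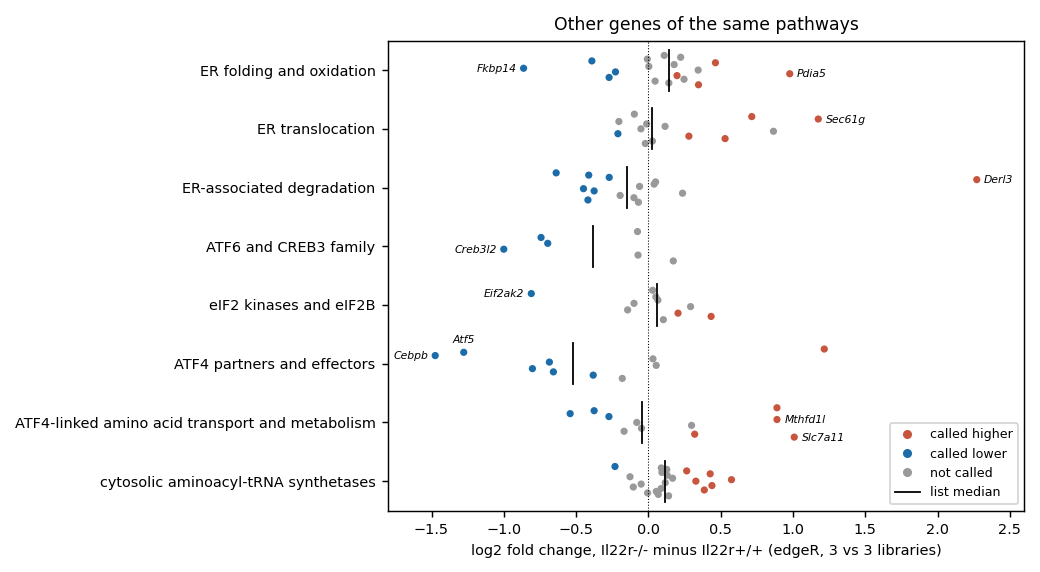
Log2 fold change (Il22r-/- minus Il22r+/+, x axis, edgeR, 3 against 3 libraries) of 102 other genes of the pathways in 8 lists. Each point is a gene (red called higher, blue called lower, grey not called) and black bars are list medians, from -0.52 for ATF4 partners and effectors to 0.14 for ER folding and oxidation.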

How the data were processed

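Raw read counts per gene were deposited by the authors for 6 libraries of granulosa cell RNA. Per the submitters' processing notes they came from featureCounts 1.5.0-p3 on mm10, and the aligner is not given in the sources used here, nor is the strand setting. The FPKM, also deposited by the authors, came from the same counts, each library total having been rescaled by 0.936 to 1.05 in a way not given, and served for levels between genes. Samples were grouped by the genotype in the labels.

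Counts were filtered (filterByExpr, 15227 genes), TMM-scaled and tested in edgeR 4.0.16 (robust quasi-likelihood fit, genotype the only term). P-values were adjusted by Benjamini-Hochberg over all tested genes and called under 0.05. They measure only the spread between these libraries, which may be technical. The step was tested on simulated data in which few genes changed, which does not test the scaling where many genes differ, as here. Principal components used the 500 most variable genes. Alternatives were DESeq2 1.42.0, limma 3.58.1 (voom, and FPKM with pseudocounts of 1 and 0.1), other scalings and filters, a replicate block and each library left out. R was 4.3.3. Depth limits the precision of the lowest members.

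Members, lists, roles and naming rules were chosen with earlier results of these data known. Named were all members and, of each other list, up to 2 called rises and 2 called falls with a mean of at least 5 CPM, by size; 1 gene that this rule names is not reported here. The background of genes with at least 10 CPM was chosen after seeing the data. Exon overlaps came from GENCODE M21 and promoters from RefSeq.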

Additional observations from a re-analysis of the deposited data

How the results depend on the processing

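No value reversed among called members. The falls numbered 12 in every alternative except without Il22r-/- replicate 3 (14). The rises numbered 7 to 12 when each library was left out in turn, 13 with library size alone, 8 by limma on log2(FPKM + 1) with no filter, and 11 or 12 otherwise. Of the 15 members that were not called, 6 changed sign under some alternative without being called: Canx, Hyou1, Xbp1, Nupr1, Asns and Pycr1. Scaling by library size alone raised log2 changes by a median of 0.10, moved the higher share of all calls from 51.6% to 63.6%, gave 35 higher and 16 lower among the 102 other genes, and took the median of the members from -0.08 to 0.02. That median was 0.01 without Il22r-/- replicate 1. Over all genes the calls numbered 6963, and 5373 to 8243 under the alternatives. The labels share replicate numbers, but same-numbered libraries did not deviate together (correlations of 0.026, -0.041 and -0.028), so the numbers were not taken as pairs. With a replicate block 6405 genes, 11 higher and 12 lower members, and 20 higher and 21 lower other genes were called. Not every library correlated best with its own number. Counting upstream bases only, the C/EBP-ATF element was in 5 member windows. Depth was least for Pycr1, Trib3 and Ddit3.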

Other observations

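Some ATF4-linked stress genes are given here because of their values, so their falls add no support to those of Cebpb and Atf5. Sesn2 and Atf3 are in the list of ATF4 partners and effectors already counted above (1 of 10 higher, 6 lower). In that list 3 genes were not called, among them Cebpg (log2 0.03 ± 0.09, edgeR adjusted p = 0.793). Ddit4, an inhibitor of mTORC1, had 41.1, 42.8 and 35.9 CPM in Il22r+/+ and 28.6, 26.9 and 18.8 CPM in Il22r-/- (log2 -0.69 ± 0.15, edgeR adjusted p = 0.00374). The leucine sensor Sesn2 had 100.01, 92.9 and 87.8 CPM against 53.5, 59.1 and 65.6 CPM (-0.66 ± 0.09, adjusted p = 0.000198). It lies on chromosome 4 (from 132492032), as does Il22ra1 (from 135728172). Of the pathway genes named above, Creb3 (from 43562332) and Sec61b (from 47474658) also lie on that chromosome. The secreted stress cytokine Gdf15 had 8.89, 9.01 and 9.42 CPM against 5.30, 5.28 and 5.06 CPM (-0.80 ± 0.15, adjusted p = 0.00139). Atf3, a stress-induced factor, went the other way from a low level, with 1.70, 2.98 and 2.37 CPM against 5.78, 5.60 and 4.99 CPM (1.22 ± 0.24, adjusted p = 0.00204).

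Srp54a, a subunit of the signal recognition particle chosen after its values were seen, had 9.45 and 10.5 CPM in Il22r-/- replicates 1 and 2 and 1.77 CPM in replicate 3, and was not called (0.86 ± 0.61, edgeR adjusted p = 0.29; 0.000546 without that library). Its Il22r+/+ libraries lay at 2.57, 4.95 and 4.501 CPM. Il22r-/- replicate 3 had the fewest reads (14948187). Its mitochondrial share of 2.72% of reads was inside the Il22r+/+ range (2.64% to 2.81%), above the 2.14% and 2.08% of Il22r-/- replicates 1 and 2. The part of depth or of this share in the member values was not tested.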
